A study of Homo sapiens with 10 samples.

Results

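The peaks of total RNA polymerase II (Pol II) were compared with those of Hexim1 in HCT116, a long-established human line from a colorectal carcinoma, and 319323 autosomal peaks entered the comparison out of 688288 peaks in the 5 peak lists analysed from this series. Each peak was set against the other list: a Pol II peak was counted as without Hexim1 when no Hexim1 peak overlapped it by at least 1 bp, and a Hexim1 peak as without Pol II in the same way. This gave 10390 Pol II peaks without Hexim1, 179191 Hexim1 peaks without Pol II, 81302 Pol II peaks with Hexim1 and 48440 Hexim1 peaks with Pol II. The cells were untreated and grown in serum-containing medium, crosslinked with 1% formaldehyde for 10 min, and their chromatin was sonicated for 50 min. Each antibody had 1 library, so the values describe these 2 libraries and no p-value is given. Intervals are 95% and cover counting error only, exact binomial for shares and from order statistics for medians. The labels call the cells endothelial, while the line is of epithelial origin. Pol II was at 9 of 20 colon epithelium promoters, among them CDX2, CDH1 and KRT19 but not KRT20, VIL1, LGALS4, TFF3 or ELF3, and at 5 of 13 endothelial promoters, among them ESAM and FLT1 but not KDR, CDH5 or TIE1. These counts alone do not separate the 2 cell types. The Pol II folds, the authors' enrichment over background, differed more. Where Pol II was present their median was 77.7 at the colon epithelium promoters and 8.68 at the endothelial ones.

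Hexim1 is a protein of the 7SK ribonucleoprotein, in which the 7SK RNA and the proteins MePCE, Larp7 and Hexim1 hold the kinase P-TEFb, made of Cdk9 and a cyclin T, in an inactive state. Active P-TEFb phosphorylates Pol II and its pausing factors, and Pol II then leaves the pause just past a gene start and elongates. Hexim1 and the 7SK particle have been mapped to promoters by chromatin immunoprecipitation, and the question put here is where along genes Pol II was found without it, and it without Pol II.

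The promoters that stood in each class are shown by 1 or 2 genes each, because the classes differed in base composition. The 250 bases before the annotated gene start are printed 5′ to 3′ on the strand of the gene, from GRCh37, with each CG in capitals. H4C5, which codes for histone H4 (chr6:26204588-26204837, + strand), and WDR75, a factor of ribosome production (chr2:190305922-190306171, + strand), had Pol II without Hexim1. MC5R, a melanocortin receptor (chr18:13823898-13824147, + strand), and KRTAP17-1, a keratin-associated protein of hair (chr17:39471963-39472212, - strand), had Hexim1 without Pol II. EIF1, a translation factor gene (chr17:39844887-39845136, + strand), had both.
H4C5: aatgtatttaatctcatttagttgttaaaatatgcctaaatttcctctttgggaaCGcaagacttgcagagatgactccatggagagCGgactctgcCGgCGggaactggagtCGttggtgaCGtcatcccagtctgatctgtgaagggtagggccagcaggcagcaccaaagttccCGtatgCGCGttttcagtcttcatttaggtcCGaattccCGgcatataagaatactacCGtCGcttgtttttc
WDR75: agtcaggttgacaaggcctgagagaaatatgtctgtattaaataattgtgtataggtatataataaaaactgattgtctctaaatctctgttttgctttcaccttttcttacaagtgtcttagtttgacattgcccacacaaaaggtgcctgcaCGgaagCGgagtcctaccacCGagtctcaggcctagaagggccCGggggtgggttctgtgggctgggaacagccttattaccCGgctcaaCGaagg
MC5R: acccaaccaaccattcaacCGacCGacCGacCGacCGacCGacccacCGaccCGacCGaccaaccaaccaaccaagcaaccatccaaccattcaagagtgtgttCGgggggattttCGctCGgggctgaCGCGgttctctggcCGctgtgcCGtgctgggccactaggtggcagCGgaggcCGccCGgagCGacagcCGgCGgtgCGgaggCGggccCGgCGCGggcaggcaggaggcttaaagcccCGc
KRTAP17-1: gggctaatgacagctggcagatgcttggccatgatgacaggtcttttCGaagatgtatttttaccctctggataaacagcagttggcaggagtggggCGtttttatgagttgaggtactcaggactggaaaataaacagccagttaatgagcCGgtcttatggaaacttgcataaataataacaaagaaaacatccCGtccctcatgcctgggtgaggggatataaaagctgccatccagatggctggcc
EIF1: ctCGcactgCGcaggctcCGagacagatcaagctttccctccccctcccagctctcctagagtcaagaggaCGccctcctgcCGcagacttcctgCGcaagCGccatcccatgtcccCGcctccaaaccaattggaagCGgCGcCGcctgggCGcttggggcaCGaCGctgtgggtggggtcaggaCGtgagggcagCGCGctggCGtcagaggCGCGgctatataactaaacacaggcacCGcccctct
These windows held 13 CG pairs at H4C5, 6 at WDR75, 28 at MC5R, 4 at KRTAP17-1 and 21 at EIF1. Pol II had a fold of 38.8 at H4C5 and 26.7 at WDR75, Hexim1 had a fold of 8.72 at MC5R and 7.99 at KRTAP17-1, and EIF1 had a Pol II fold of 172 and a Hexim1 fold of 14.5. A fold is the authors' enrichment of a peak over its background, and folds are compared only within their own list.

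Most Pol II peaks lay under Hexim1, and most Hexim1 peaks lay away from Pol II. Pol II peaks without Hexim1 made up 11.3% of 91692 Pol II peaks (11.1 to 11.5), and Hexim1 peaks without Pol II made up 78.7% of 227631 Hexim1 peaks (78.6 to 78.9). Pol II peaks covered 41.1 Mb and Hexim1 peaks 185 Mb. The bases under both were 88.9% of the Pol II bases and 19.8% of the Hexim1 bases. Of the shared Pol II peaks, 97.8% had their summit inside a Hexim1 peak, and 14515 Hexim1 peaks (30.0% of the shared ones) each held 2 or more Pol II peaks, up to 90. The Pol II peaks left out of Hexim1 were seldom far from it, with a median gap of 1113.5 bp to the next Hexim1 peak and 621 of them more than 10 kb away. The Hexim1 peaks without Pol II were 15398 bp from the next Pol II peak in the median, and 60.6% of them were more than 10 kb away.

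Unshared peaks were weaker and narrower than shared ones in both lists. The median fold was 4.93 for Pol II peaks without Hexim1 and 6.72 for those with it, and the median widths were 216 and 303 bp. For Hexim1 the medians were 3.31 without Pol II and 5.45 with it, at widths of 318 and 1135 bp. Split into deciles by fold, the weakest Pol II decile lacked Hexim1 at 24.6% of its peaks (23.8 to 25.5), and the strongest at 13 of 9170 (0.142%, 0.0755 to 0.242). Hexim1 peaks lacked Pol II in 96.1% of the decile of lowest fold and in 11.5% of the decile of highest fold. Width moved with fold, from a median of 190 bp in the lowest Pol II decile to 1019 bp in the highest, and the part of width in these shares was not tested. Peaks whose −log10 q reached 5 in their own list made up 75.4% of the Pol II list and 19.96% of the Hexim1 list. Among them 25.5% of Pol II peaks lacked Hexim1 and 34.1% of Hexim1 peaks lacked Pol II, so the size of both shares depends on how far down each list is read.

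**Figure D1:**
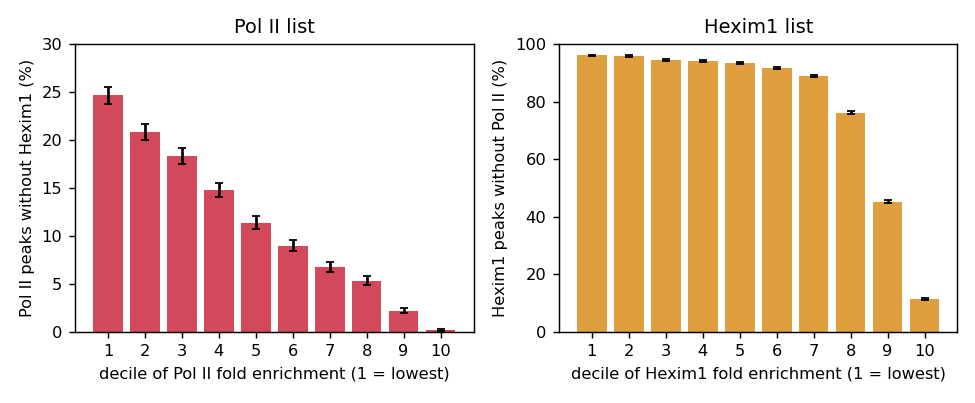
Share of peaks that no peak of the other list overlapped, by decile of the authors' fold within the list, for Pol II (left) and Hexim1 (right, another y scale); bars are shares in percent and lines exact 95% binomial intervals. The share was 24.6% in the lowest and 0.142% in the highest Pol II decile, and 96.1% and 11.5% in those of Hexim1.

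Places in the gene were read from the middle of each peak: within 1 kb of the start of a coding gene (promoter), else in an exon, an intron or between coding genes (intergenic). Promoters were the place where the lists coincided. Pol II peaks without Hexim1 were 3.67% of Pol II peaks at promoters (3.38 to 3.99), 8.17% in exons, 14.7% in introns and 13.9% between genes. Hexim1 peaks without Pol II were 12.9% of Hexim1 peaks at promoters (12.3 to 13.5), 47.2% in exons, 83.0% in introns and 86.9% between genes. Seen from the classes, 5.35% of the Pol II peaks without Hexim1 stood at a promoter and 51.4% in an intron, against 17.9% and 38.3% of those with it. Of the Hexim1 peaks without Pol II, 0.843% stood at a promoter and 44.7% between genes, against 21.1% and 25.1% of those with Pol II. Among only the 20000 strongest peaks of each list, 24.1% of the Pol II peaks without Hexim1 and 13.3% of the Hexim1 peaks without Pol II stood at a promoter. The intervals of the shares over the whole lists did not overlap between the unshared and shared peaks of a list.

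**Figure D2:**
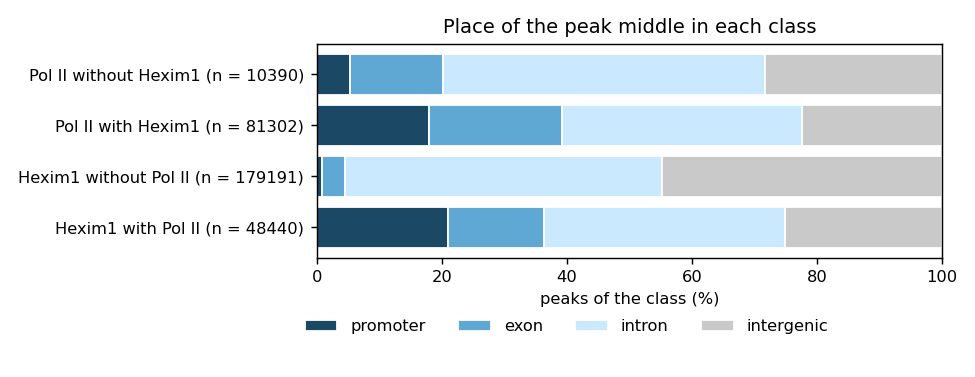
Place of the peak middle, in percent of each class, with the number of peaks in brackets; each bar adds up to 100%. The promoter share was 5.35% for Pol II without Hexim1 and 17.9% with it, and 0.843% for Hexim1 without Pol II and 21.1% with it.

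Median distance to gene starts gave the same order. The median distance from the peak middle to the nearest annotated start of any gene was 7085 bp for Pol II peaks without Hexim1 and 5460 bp for those with it. For Hexim1 it was 13914 bp without Pol II and 5449 bp with it. Measured to the starts of coding genes alone, the medians were 14776 bp for Pol II peaks without Hexim1, 37904 bp for Hexim1 peaks without Pol II, 12669.5 bp for Pol II peaks with Hexim1 and 13803.5 bp for Hexim1 peaks with Pol II. Of the Hexim1 peaks without Pol II, 25.1% lay over 100 kb from any coding start, against 11.4% of those with Pol II. For Pol II peaks these shares were in the other order, at 7.66% without Hexim1 and 9.24% with it. Within 1 kb of a start, shared peaks lay on the gene side, 71.7% of them for Pol II and 69.98% for Hexim1, while the unshared peaks were more evenly split, with 56.5% of Pol II peaks without Hexim1 and 53.3% of Hexim1 peaks without Pol II on the gene side.

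Intronic peaks lay in genes of different length. The host genes had a median length of 56529 bp for Pol II peaks without Hexim1 (54587 to 58933) and 69508 bp for those with it. The hosts of Hexim1 peaks without Pol II were longer, at 127040 bp (126080 to 128353), against 75065 bp for those with Pol II, and 32.8% of the Hexim1 peaks without Pol II in introns lay in genes of 200 kb or more. Counted per peak, the host gene had Pol II at its promoter for 89.6% of the intronic Pol II peaks without Hexim1 and 89.8% of those with it. For the intronic Hexim1 peaks the share was 80.9% without Pol II and 87.15% with it. Counted per gene, 71.8% of all coding promoters had Pol II. The genes with the most Hexim1 peaks without Pol II were long: PTPRN2, a phosphatase-like protein of secretory granules, is 1048.8 kb long and held 172, and CAMTA1, a transcription activator, is 984.3 kb long and held 136. These are counts per gene, and the medians above count a gene once for each of its peaks. Per 100 kb of gene body, from 2 kb past the start, all Hexim1 peaks numbered 17.9 in genes of 10 to 50 kb. In genes of 200 kb or more they numbered 5.996, and Pol II peaks fell from 13.5 to 1.23 between these groups. Over CDH13, a cadherin gene of 1173.7 kb, 95 Hexim1 peaks had no Pol II and 2 did.

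Pol II without Hexim1 was found more often past the ends of coding genes, where polymerase is known to go on transcribing beyond the polyadenylation site before it is released. Of the Pol II peaks without Hexim1, 1570 (15.1%, 14.4 to 15.8) lay between genes and within 5 kb past a coding gene's end, against 4675 (5.75%, 5.59 to 5.91) of those with Hexim1. For Hexim1 the shares were 2.92% without Pol II and 5.21% with it. The first 1 kb past the end held 5.68% of the Pol II peaks without Hexim1 and 1.74% of those with it, and from 5 to 10 kb past the end the shares were 2.81% and 1.92%. The difference was present in each quintile of the Pol II list by fold: 13.2% of the peaks without Hexim1 and 6.40% of those with it in the lowest, and 20% (14.9 to 26.0) and 3.89% (3.61 to 4.18) in the highest. With each peak cut to its middle and 250 bp to either side, the 5 kb shares were 8.17% without Hexim1 and 5.5% with it. The 1570 peaks lay past 1179 genes. Counted per peak, 90.6% of them lay past a gene with Pol II at the promoter, close to the 90.3% for the peaks with Hexim1. Of all coding promoters 71.8% had Pol II.

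Of the 8 strongest of these end peaks 6 are described, chosen after their values were seen. The other 2 lay past TRIB1 (fold 26.1) and ZNF79 (23.7), by the nearest coding end. The peak given to ZNF79 also lay past RPL12, a gene of 3733 bp, 5261 bp downstream of its start. Past RPL10A, a ribosomal protein gene, a Pol II peak of fold 28.0 stood 757 bp beyond the end (chr6:35438802-35439836), 1630 bp from the nearest Hexim1 peak. Past ACTB, the gene of beta-actin, a peak 2737 bp wide had a fold of 27.5 (chr7:5564305-5567041). HNRNPA1, an RNA-binding protein gene, had one of fold 24.9 at 663 bp, HMGB2, a chromatin protein gene, one of fold 22.2 at 202 bp, and RPS12 one of fold 21.9 at 1430 bp. All of these genes carried both factors at their promoters, with Pol II and Hexim1 folds of 102.4 and 7.795 at RPL10A, 15.8 and 4.65 at ACTB, 23.8 and 4.35 at HNRNPA1, 94.4 and 8.30 at HMGB2 and 93.2 and 6.13 at RPS12. The annotated start of ACTB used here belongs to a record 37494 bp long. The same split within a gene was seen at EIF1, whose last exon held a Pol II peak of fold 29.5 with no Hexim1 closer than 1914 bp, 3284 bp past a start where both were present. PHLDA1, an early response gene, had such peaks in its exon (fold 27.9) and 1398 bp past its end (fold 23.2).

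**Figure D3:**
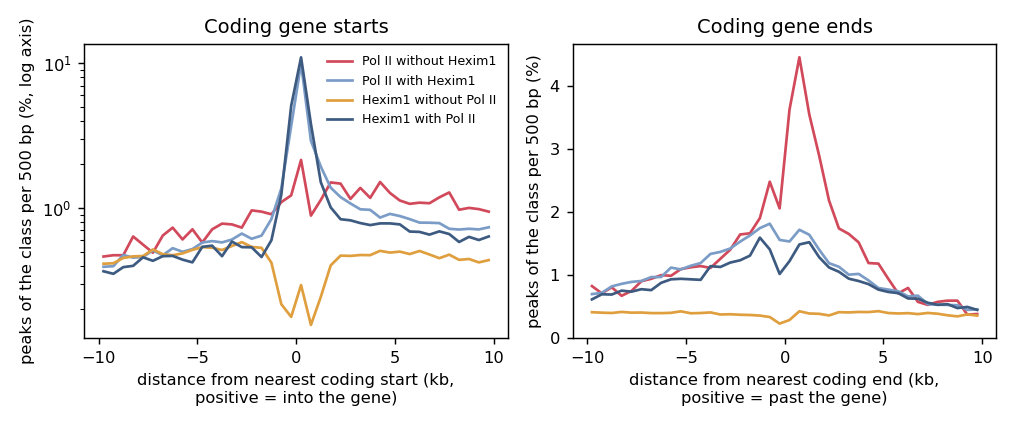
Peaks of each class in bins of 500 bp around the nearest coding gene start (left, log axis) and the nearest coding gene end (right), in percent of the class; positive distances lie inside the gene on the left and past it on the right. Pol II peaks without Hexim1 show a maximum just past gene ends, where 5.68% of them lay within 1 kb between genes, and 0.843% of the Hexim1 peaks without Pol II lay within 1 kb of a start.

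Some genes carried many Pol II peaks without Hexim1 along their length. Counted over the gene and 5 kb past its end, 5499 coding genes had at least 1 and 58 had at least 10. The 5 with the most were FAT1, a large cadherin, with 25 without Hexim1 and 18 with it, GPRC5A, a retinoic acid-induced receptor, with 22 and 5, AKAP12, a kinase-anchoring scaffold, with 20 and 29, DCBLD2, a membrane protein, with 19 and 10, and EZR (ezrin, which ties the membrane to actin) with 19 and 19. At ENO1, a glycolytic enzyme, 14 Pol II peaks were without Hexim1 and 6 with it. All 6 genes carried both factors at the promoter, as 70.8% of all coding promoters did, with Pol II folds of 69.9 to 124.1. ENO1 was picked from further down the ranking. Among genes with more such peaks than ENO1, PALLD (17) and CYB5B (15) had neither factor at the promoter. MYOF (16) had Pol II without Hexim1 there, at a fold of 4.22, and the rest had both.

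Small nuclear RNA genes carried several of the strongest Pol II peaks without Hexim1, including the strongest. These short genes, among them those for the U1, U4 and U5 RNAs of the spliceosome and the U7 RNA of histone message processing, are mostly transcribed by Pol II from promoters of their own kind, while U6 genes are transcribed by Pol III. The highest fold of all Pol II peaks without Hexim1 was 71.1, over RNVU1-14, a U1 variant gene (chr1:148241314-148242184, 871 bp), with the next Hexim1 peak 1750 bp away. RNU5F-1 had a peak of fold 58.2 and RNVU1-13 one of 43.8, with gaps of 241 and 5154 bp to Hexim1. In the decile of highest fold, 4 of the 13 Pol II peaks without Hexim1 lay within 500 bp of an snRNA gene or pseudogene, and the other 9 lay elsewhere, as in MALAT1 (63.95) and an intron of PTPRS (50.7). Over 41 snRNA genes whose symbol is not that of a pseudogene there were 18 Pol II peaks, of which 9 had no Hexim1 (50.0%, 26.0 to 74.0), against 11.3% of all Pol II peaks. Limited to the 2 highest fold deciles the counts were 9 of 17 at snRNA genes (52.9%, 27.8 to 77.0) and 215 of 18339 overall (1.17%). This set of genes was defined after the peaks had been seen, so the counts are a description.

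The snRNA genes were not all alike. By overlap of the peak itself, without Hexim1 stood, beside those named, RNU1-2 (fold 31.3), RNU4-1 (17.1), RNU5B-1 (19.4), RNU5D-1 (22.34), RNVU1-15 (20.0) and RNVU1-19 (21.6). Within 1 kb of the gene start, however, RNU4-1, RNU5D-1 and RNU5F-1 had Hexim1 too, at folds of 4.07, 3.28 and 3.24. Read by starts, 17 of 1797 snRNA genes and pseudogenes had Pol II without Hexim1 (0.946%). The Pol II peaks with Hexim1 included RNU5E-1 (109.8), RNU4ATAC (49.1) and RNU7-1 (44.3). Hexim1 lay 59 bp from the unshared Pol II peak at RNU4-1 and 113469 bp from that at RNVU1-19. With only the 20000 strongest peaks of each list 94.1% of the snRNA peaks lacked Hexim1, against 28.4% of all Pol II peaks. With peaks within 1 kb merged the shares were 31.6% and 10.4%. Copies of U1 cannot be told apart with certainty: the 164 bases of RNU1-2 differ from those of RNU1-1 at 0 positions, and RNU1-1 was counted with Hexim1 while RNU1-2 was without. Their flanks differ, as the 100 bases before each gene show (5′ to 3′, GRCh37, capitals mark a base that differs from RNU1-1 at the same position): RNVU1-14 at chr1:148241365-148241464 (+ strand), RNVU1-13 at chr1:147994046-147994145 (+), RNU1-2 at chr1:17222375-17222474 (+) and RNU1-1 at chr1:16840781-16840880 (- strand).
RNVU1-14: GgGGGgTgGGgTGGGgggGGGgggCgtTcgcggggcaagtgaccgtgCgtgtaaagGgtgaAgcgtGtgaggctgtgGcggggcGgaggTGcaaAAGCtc
RNVU1-13: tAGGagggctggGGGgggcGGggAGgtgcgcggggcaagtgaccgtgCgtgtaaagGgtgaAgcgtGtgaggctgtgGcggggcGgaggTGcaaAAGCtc
RNU1-2: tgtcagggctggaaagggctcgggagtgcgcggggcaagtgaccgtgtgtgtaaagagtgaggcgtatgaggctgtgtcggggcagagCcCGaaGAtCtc
RNU1-1: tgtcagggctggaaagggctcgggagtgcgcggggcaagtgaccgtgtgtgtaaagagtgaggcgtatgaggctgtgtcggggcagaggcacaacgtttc
Position for position, RNVU1-14 differed from RNU1-1 at 28 of the 100 bases, RNVU1-13 at 22 and RNU1-2 at 6.

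Genes of other short RNAs divided by kind. Over snoRNA genes, whose RNAs guide changes to ribosomal and small nuclear RNA, 17 of 49 Pol II peaks had no Hexim1 (34.7%, 21.7 to 49.6). They included genes with a promoter of their own: SNORD3B-2, a copy of the U3 gene, had a Pol II fold of 26.3 with Hexim1 38948 bp away. Over miRNA genes 10 of 259 Pol II peaks were without Hexim1 (3.86%, 1.87 to 6.99), and over lncRNA genes 1484 of 13919 (10.7%). Within MALAT1, a nuclear lncRNA, a Pol II peak of fold 63.95 lay 393 bp from the nearest Hexim1 peak, although the promoter carried both, at folds of 43.5 and 8.26. Genes transcribed by Pol III, named after their values were seen, were divided. Within 1 kb of their starts VTRNA1-1, VTRNA1-2, VTRNA1-3, RNY1, RNY4, RN7SL3 and RNU6-7 had Hexim1 without Pol II, at Hexim1 folds of 2.86 to 5.30. In the same windows both factors were at RNU6-1, RNU6-2, RNU6-8, RNU6-9, RNU6ATAC, RNY3, RNY5, VTRNA2-1, RMRP and RN7SL2, with Pol II folds of 6.33 (RNY3) to 99.4 (RMRP). Over the gene itself RNU6-9 and RNU6ATAC had Hexim1 but no Pol II peak, against Pol II folds of 81.55 and 21.4 in the windows. At RNU6-2 the Pol II fold was 5.43 over the gene and 63.15 in the window. Of 1158 genes in the misc_RNA class of the annotation, which holds the RNY genes, 28.6% had Hexim1 without Pol II. Other noncoding kinds had shares of 24.9% (snRNA), 24.5% (processed pseudogenes), 20.2% (miRNA), 18.8% (snoRNA) and 16.2% (lncRNA). RN7SK, the gene of the 7SK RNA itself, had both, at a Pol II fold of 13.3 and a Hexim1 fold of 6.55.

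At coding promoters, taken as 1 kb to either side of the annotated start, most genes had both factors. Of 19222 autosomal coding promoters, 194 had Pol II without Hexim1 (1.01%), 1748 had Hexim1 without Pol II (9.09%), 13615 had both (70.8%) and 3665 had neither (19.1%). The first count moved most with the reading of the lists: it was 911 at a −log10 q of 5 or more, 1524 with 20000 peaks a list, 1382 with peaks cut to 500 bp and 466 with as many Hexim1 as Pol II peaks, so the shares of gene lists below are set against 1.01% for the whole lists alone. Any Pol II peak was at 71.8% of promoters and any Hexim1 peak at 79.9%. The median Pol II fold was 6.72 at promoters without Hexim1 and 40.5 at those with it, and the median Hexim1 fold was 3.95 without Pol II and 7.29 with it. In the Pol II promoter quintile of lowest fold 138 of 2761 lacked Hexim1 (5.00%), against 0 of 2762 in the next-to-highest (up to 0.134%) and 1 of 2762, MTMR2, in the highest. Hexim1 lay within 2 kb of the start at 74 of the 194, and Pol II within 2 kb at 267 of the 1748. With the start of any transcript of the gene taken into account, 78 of the 194 had Hexim1 and 553 of the 1748 had Pol II, so a part of both classes depends on which start is taken.

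Genes with Hexim1 without Pol II were shorter than those with both. The median gene length was 24946 bp (19731 to 31595) for Pol II without Hexim1, 20337.5 bp (18420 to 21966) for Hexim1 without Pol II, 30971 bp (30003 to 32020) for both and 18235 bp for neither. The interval of the small Pol II class reached into that of both. By gene length, Hexim1 without Pol II was found at 16.8% of promoters of genes under 2 kb (14.6 to 19.2) and at 6.32% of those of 200 kb or more (5.12 to 7.71). Pol II without Hexim1 was at 1.03% and 0.764% of them, with intervals that overlap. In genes of at least 4 kb, Pol II was in the body, from 2 kb past the start to the end, at 58.2% of those with Pol II without Hexim1, 57.6% with Hexim1 without Pol II, 69.9% with both and 39.0% with neither.

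Base composition differed between the classes at every place. In the 300 bases around the peak middle the median GC content was 52.3% for Pol II peaks without Hexim1 and 65.0% for those with it, and 51.0% for Hexim1 peaks without Pol II and 61.7% for those with it. At promoters Pol II peaks without Hexim1 had 56.3% (55.7 to 56.7) and those with it 70%, and between genes the values were 52.0% and 65.0%. Lack of Hexim1 fell off steeply with GC: 50.2% of Pol II peaks under 50% GC had no Hexim1, 30.7% from 50 to 60%, 1.84% from 60 to 70% and 0.405% at 70% or more. Within the list the shares were also read by fold. In the top Pol II quintile by fold, 33.7% of peaks under 50% GC lacked Hexim1 (26.8 to 41.2) and 0.106% of those at 70% or more (0.0485 to 0.201). The other lists moved with GC in the same direction, since under 50% GC 69.6% of Pol II peaks had no Larp7, 82.8% no Cdk9 and 96.1% no KAP1, and at 70% or more 0.770%, 2.27% and 4.93%. The gap in GC between Pol II peaks without and with Hexim1 narrowed where every peak was cut to 500 bp, with medians of 63.3% and 65%. The part of base composition in these shares was not tested.

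The shares past gene ends were read by band of GC as well. From 50 to 60% GC, 37.1% of the Pol II peaks within 5 kb past a coding end lacked Hexim1 (35.4 to 38.9), against 27.5% of other intergenic Pol II peaks (25.9 to 29.2). From 60 to 70% the shares were 4.16% (3.36 to 5.09) and 1.43% (1.18 to 1.72), while under 50% they were 50.4% and 57.5%, in the other order. At the snRNA genes GC did not separate the classes: the 9 Pol II peaks without Hexim1 had 40.3 to 55.7% GC and the 9 with it 39.7 to 61.7%.

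**Figure D4:**
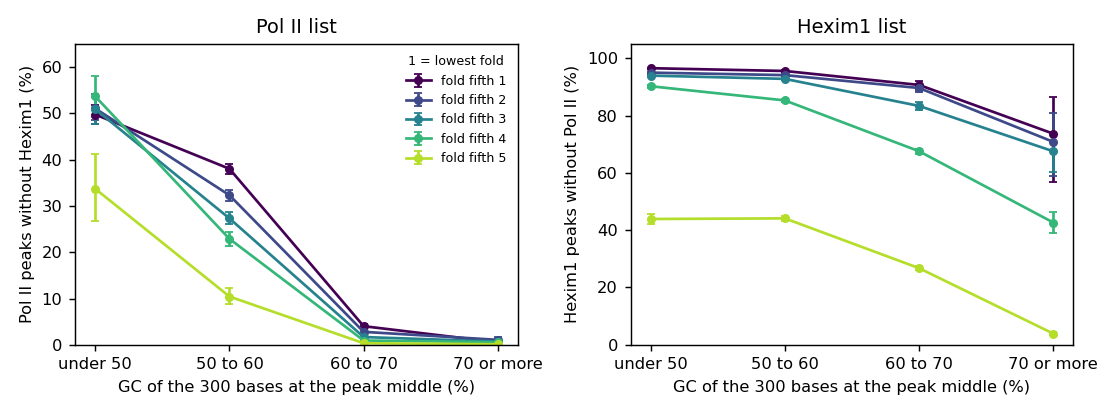
Share of peaks without the other factor by GC content of the 300 bases at the peak middle, for Pol II (left) and Hexim1 (right, another y scale), with a line for each quintile of the list by fold; error bars are exact 95% binomial intervals. In the top Pol II quintile the share was 33.7% under 50% GC and 0.106% at 70% or more.

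The promoter sequences followed the same order and differed in CG pairs. In the 250 bases before the start the median GC content was 52.4% at promoters with Pol II without Hexim1, 52.8% with Hexim1 without Pol II, 64.4% with both and 43.6% with neither. The ratio of observed to expected CG pairs divided the first from the second class, at medians of 0.67 (0.58 to 0.75) and 0.28 (0.26 to 0.28), against 0.78 with both and 0.18 with neither. A ratio of 0.6 or more was found at 56.2% of promoters with Pol II without Hexim1 (48.9 to 63.3), 15.2% with Hexim1 without Pol II (13.6 to 16.99), 74.7% with both and 6.69% with neither. MC5R, printed above, is thus an exception in its class, with a ratio of 0.96, while KRTAP17-1 at 0.31 is near its median. Among promoters with both, EIF1 had 65.6% GC and a ratio of 0.79, near the medians. TRIM28, not printed, was lower at 53.6% and 0.52. Where promoters had few CG pairs, with a ratio under 0.2, 51.3% of those with Hexim1 had no Pol II (48.3 to 54.2), and at 0.8 or more 1.68% did.

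Exact matches to short motifs were counted in the same windows on both strands. The ETS core CCGGAAGT was in 17 of the 194 promoters with Pol II without Hexim1 (8.76%, 5.19 to 13.7), 0.687% with Hexim1 without Pol II, 4.86% with both and 3.71% of all. The GC box GGGCGG was in 31.4%, 20.7% and 63.8% of the 3 classes and 48.9% of all. TATAAA was in 10.3%, 15.7% and 5.73%, and in 10.1% of all, and CCAAT in 35.6%, 31.4% and 32.0%, and in 32.9% of all. A match is a description of the letters only, and the first 2 motifs hold a CG pair.

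The promoters of highest Pol II fold without Hexim1 included several whose Pol II peak only reached the window. MTMR2, a lipid phosphatase, had a Pol II fold of 115.7, with Pol II 957 bp and Hexim1 1020 bp from its start, and the peak itself was shared. NDUFV1, of respiratory complex I, had 51.2 with Pol II 1000 bp away. Peaks that covered the start itself were those of H4C5 (38.8), HIST1H4B (27.5), H4C11 (27.4), EMP1, an epithelial membrane protein (26.7), WDR75 (26.7) and TM9SF4, a membrane protein (24.5), with Hexim1 1093 to 4592 bp from the start. At MRPS18B, a mitochondrial ribosomal protein gene (33.5), and LRRN4CL (32.2) the strongest peak did not reach the start, and that of LRRN4CL was touched by Hexim1 outside the window. AREG, a ligand of the EGF receptor that was picked after its value was seen, had a Pol II fold of 21.6 and no Hexim1 within 33685 bp. In all, 188 of the 194 had a strongest Pol II peak that Hexim1 touched nowhere along its length.

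Among promoters of highest Hexim1 fold without Pol II the window edge mattered as much. MAFF, a stress-response transcription factor (Hexim1 fold 15.2), PDP2 (10.4), BBC3, a p53 target that promotes cell death (9.97), FAM167B (9.29), EEF1A1, a translation factor (9.08), C1QTNF1 (8.92) and MLPH (8.79) all had Pol II within 1014 to 1786 bp of the start. At EEF1A1 a Pol II peak of fold 176.3, the highest of the list, lay in an exon with its middle 4606 bp past the annotated start. MC5R (8.72) was the member of this list with no such neighbour, with Pol II 22963 bp away. Away from promoters the strongest Hexim1 peaks without Pol II had folds of 11.9 in an exon of CPNE4, a calcium-dependent membrane-binding protein, with no Pol II within 360944 bp, 11.7 in an exon of EPHA8, an ephrin receptor, and 11.3 in an intron of ZSCAN5A. Larp7 and Cdk9 overlapped all 3, and KAP1 only the one in EPHA8. In the Hexim1 decile of highest fold, Larp7 was at 95.5%, Cdk9 at 63.7% and KAP1 at 49.8% of the peaks without Pol II.

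Shared promoters of highest fold gave the scale of the lists. Pol II was highest at TRIM28, the gene of KAP1 (176.1), at H2BC5 and H1-4 (175.2 each), at EIF1 (172), at TUBB2A, a tubulin (170.3), and at SERPINB9 and the start shared by SLBP and TACC3 (168.7 each). Hexim1 was highest at DDX59 (18.9), FBXW8 (18.7), MAN2C1 (17.7), HMGXB4 (17.6) and MTF2 (17.3), beside the TGS1 and TMEM68 start on chromosome 8 (18.4). No gene was in both sets, and Pol II folds at these genes of highest Hexim1 fold ran from 44.8 to 163.5.

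The genes of the 7SK particle and of elongation carried both factors almost throughout, as the promoters with both do at 70.8% of all genes. Of 16 genes for the 7SK particle, P-TEFb and factors that assemble or release it, 15 had both, among them HEXIM1 (Pol II 110.3, Hexim1 7.19), MEPCE, which caps the 7SK RNA (153 and 7.52), CDK9 (53.4 and 7.95), CCNT1 (30.5 and 4.27) and CCNT2 (62.6 and 7.43). LARP7 had Hexim1 without Pol II at its annotated start, with a Hexim1 fold of 2.96 at 951 bp and Pol II 68596 bp away. Of 29 elongation factors 28 had both, and RTF1, of the PAF complex, had Hexim1 alone, with Pol II 2063 bp away. Pol II subunits had both at 11 of 12, and POLR2K was without Hexim1 at a Pol II fold of 4.76.

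Lists of response, cell cycle, glycolytic and ribosomal protein genes had both factors at higher shares than the 70.8% of all promoters. The intervals of the heat shock (69.8 to 99.8) and glycolytic (63.6 to 98.5) lists included 70.8%. Both factors were at 27 of 28 immediate early genes, including FOS (159.8 and 7.91), EGR1 (157.4 and 9.73) and DUSP1 (163.5 and 10.7), at 15 of 16 heat shock genes, at 26 of 26 cell cycle genes, at 20 of 22 p53 targets and at 15 of 17 glycolytic genes measured. CDKN1A, the cell cycle inhibitor, and BBC3 were the p53 targets with Hexim1 alone, with Pol II 1926 and 1116 bp from the annotated start. Of 82 ribosomal protein genes 76 had both. RPL35A (Pol II fold 12.7) and RPL34 (7.28) had Pol II without Hexim1, and the testis gene RPL10L had Hexim1 alone at 4.26.

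Replication-dependent histone genes, which lack introns and polyadenylated messages, were spread over all classes. Of 64, 4 had Pol II without Hexim1, against 1.01% of all promoters, 10 had Hexim1 without Pol II, 41 had both and 9 neither. The 4 were H4C5 (38.8), H4C11 (27.4), H4C4 (20.3) and H2AC19 (10.0), and HIST1H4B, outside the list by its symbol, is a further histone H4 gene. The 10 with Hexim1 alone included H3C3 (Hexim1 7.82), H4C13 (5.88), H1-1 (5.67) and H2AC16 (5.14). The highest Pol II folds with both were at H1-4 and H2BC5 (175.2) and H2AC11 (165). Many of these genes stand within a few kb of each other, so they are not independent, and copies of near-identical sequence can share reads.

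Keratin-associated protein genes, which are expressed in hair, had Hexim1 without Pol II more often than all promoters. For olfactory receptor genes the share was near that of all promoters, but most of them had neither factor. Of 94 keratin-associated protein genes, 1 had Pol II without Hexim1, 35 had Hexim1 without Pol II (37.2%, against 9.09% of all promoters), 23 had both and 35 neither. They differed by cluster: on chromosome 21 from 45958864 to 46117959 all 16 had Hexim1, 7 of them without Pol II, while from 31653627 to 32410795 on the same chromosome 3 of 33 had Hexim1 and 29 had neither. On chromosome 17 16 of 34 had Hexim1 without Pol II, at Hexim1 folds of up to 7.99, and on chromosome 11 9 of 11 did. Pol II where present was low, at folds of 4.04 to 16.6. Members of a cluster can share a peak. The windows before these starts had a median GC of 41.0% and a median CG ratio of 0.14. Of 413 olfactory receptor genes, 3 had Pol II without Hexim1, 41 Hexim1 without Pol II (9.93%), 3 both and 366 neither. Where olfactory receptor genes had Hexim1, 41 thus lacked Pol II and 3 had it. The same counts were 35 and 23 for keratin-associated protein genes and 1748 and 13615 for all promoters. The olfactory receptor genes with Pol II without Hexim1 were OR51B5 (16.3), OR51Q1 (6.82) and OR51I2 (4.99). They lie on chromosome 11, where the globin genes HBE1 and HBG2 had the same Pol II fold of 16.3 as OR51B5. All of these read the same peak, at 5526666 to 5526969. The starts used for HBE1 and HBG2 belong to records 237308 and 252418 bp long, and that of OR51B5 to one of 202209 bp.

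Zinc finger genes, the longest list, were close to all promoters. Of 496, 5 had Pol II without Hexim1 (1.01%, the same as over all promoters), with ZNF480 (16.4) and ZNF317 (14.6) the highest, 54 had Hexim1 without Pol II (10.9%, against 9.09% of all promoters), 397 both and 40 neither. HOX genes had both at 36 of 39 (70.8% of all promoters had both), with HOXB3 and HOXB6 at a Pol II fold of 10.0 without Hexim1 and HOXC6 with Hexim1 alone. Of the 20 colon epithelium genes 0 had Pol II without Hexim1 and 9 had both, led by CDX2 (100.2 and 8.94), CDH1 (97.6 and 6.78) and KRT19 (83.0 and 8.01). The differentiation genes KRT20, VIL1, LGALS4, TFF3 and ELF3 had Hexim1 without Pol II (25% of the list), at Hexim1 folds of 2.96 to 4.94, and 6 had neither. The endothelial list had Hexim1 alone at 3 of 13 (23.1%) and both at 5. Blood genes had it alone at 3 of 14 (21.4%), with both at 2, fibroblast and smooth muscle genes at 1 of 13 (7.69%), with both at 7, and neuronal genes at 1 of 13 (7.69%), with both at 10. With lists this short, 1 gene moves a share by several percentage points.

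**Figure D5:**
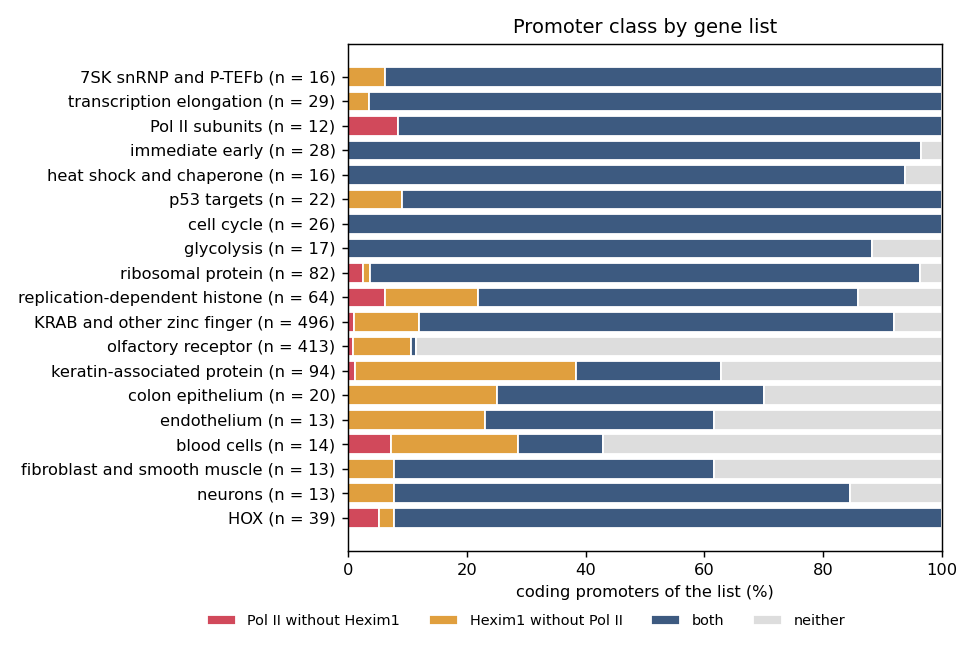
Promoter class in percent of the coding genes of each list, with the number of genes in brackets; colours give Pol II without Hexim1, Hexim1 without Pol II, both and neither, and each bar adds up to 100%. Over all promoters the 4 classes were 1.01%, 9.09%, 70.8% and 19.1%. Keratin-associated and olfactory receptor genes had both at 24.5% and 0.726%.

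The other lists of the series marked the classes apart. KAP1 overlapped 2.01% of Pol II peaks without Hexim1 and 66.9% of those with it, Larp7 23.5% and 90.2%, and Cdk9 11.3% and 75.8%. On Hexim1 peaks without Pol II the shares were 7.98% for KAP1, 43.8% for Larp7 and 20.6% for Cdk9, against 69.3%, 90.8% and 78.9% on those with Pol II. In the Hexim1 decile of highest fold, Larp7 was at 95.5% of the peaks without Pol II and 99.5% of those with it, and KAP1 at 49.8% and 93.2%. For Pol II peaks without Hexim1 the Larp7 share did not follow their fold, at 23.6% in the lowest decile and 16.8% in the ninth. At coding promoters Larp7 was at 11.3% of those with Pol II without Hexim1 (7.25 to 16.7), 72.1% of those with Hexim1 without Pol II and 96.6% of those with both. These lists were made in the same series from single libraries, and their own depth is unknown.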

How the data were processed

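Chromatin immunoprecipitation libraries of HCT116 cells were compared through the peak lists of Pol II (narrow layout) and Hexim1 (broad layout), with KAP1, Larp7 and Cdk9 as further lists. The tools named per the submitters' processing notes are Bowtie 1.1 and MACS2, with hg19 as the build. Not given in the sources used here: the control library, duplicate handling, calling settings and read depth. The deposited fold is a ratio the authors' caller set for each peak against its local background, and the deposited −log10 p and −log10 q are those of the peak caller. The deposited score was not used. The layouts differ in how wide a peak may grow, which bears on every overlap of 1 bp. Per the labels, the library of each antibody is 1 sample.

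Peaks on chromosomes 1 to 22 were used, with GENCODE release 44 genes on GRCh37, which left out 1247 Pol II and 2048 Hexim1 peaks. Coding genes had 1 start per symbol, that of the longest record. Base composition was read from GRCh37. Python 3.11.15, pandas 2.3.3, scipy 1.17.1 and pysam 0.24.0 were used, and overlaps were tested on simulated intervals and against bedtools 2.31.1. Members and gene lists were chosen with earlier results of these data known. Named promoters were the 10 of highest Pol II fold without Hexim1, the 10 of highest Hexim1 fold without Pol II, and the 6 of highest fold of each factor among those with both. Each list was represented by all members with 1 factor only where at most 6 (else the 4 of highest fold), and by 3 with both. The 3 peaks of highest fold in each class and place were also taken. Some of these are not reported here. The lists cover the 7SK particle, elongation, Pol II subunits, immediate early, heat shock, p53, cell cycle, glycolysis, ribosomal protein, histone, zinc finger, olfactory receptor, keratin-associated, HOX, colon, endothelial, blood, fibroblast and neuronal genes; PGK1, PECAM1 and DCX were not measured.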

Additional observations from a re-analysis of the deposited data

How the results depend on the processing

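Both overlap shares, the promoter counts and the distances changed with how far down the lists were read, and the promoter shares also with the window and the start taken. Of 72 alternative values for the main results 29 stayed within their interval, or within 1.5 times for counts, and 43 moved; the causes were not tested. In the order share of Pol II peaks without Hexim1, share of Hexim1 peaks without Pol II, promoters with Pol II without Hexim1, promoters with Hexim1 without Pol II, promoter share of each class, median distance to any gene start and median gene length for Hexim1 without Pol II, a −log10 q of 5 or more gave 25.51%, 34.12%, 911, 941, 6.496%, 4.088%, 12602 bp and 25893 bp. Keeping only 20000 peaks a list, by −log10 p, gave 28.38%, 42.6%, 1524, 1496, 24.08%, 13.29%, 8214 bp and 28863 bp. Peaks cut to 250 bp on each side of the middle gave shares of 49.06% and 81.66%, 1382 promoters with Pol II without Hexim1, promoter shares of 11.05% and 1.329%, and 13580 bp. As many Hexim1 as Pol II peaks, an alternative chosen after seeing the data, gave 21.38%, 55.31%, 466, 1063, 4.25%, 1.629% and 14332 bp. Merging peaks within 1 kb gave 10.38%, 78.45%, promoter shares of 3.345% and 0.7687%, and 14707 bp. An overlap of 50% of the shorter peak gave 13% and 79.03%; promoter counts and gene lengths use no overlap between peaks and were not run there. Promoter shares of Pol II without Hexim1 and Hexim1 without Pol II were 3.369% and 0.4716% with a 500 bp window, 9.846% and 2.438% with 2 kb and 17.75% and 4.669% with any transcript start. With X and Y added the Hexim1 promoter share was 0.9002%, and to coding starts its median distance was 37904 bp. In the 6 alternatives run, the share past gene ends was 7.981 to 15.16% for Pol II without Hexim1 and 2.883 to 5.595% with it, higher without it in each.

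No paired analysis was possible because each antibody has 1 library and no test was made. Read depth is unknown, so a peak absent from a list was not detected at that depth.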

Other observations

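The share of unshared peaks varied between chromosomes. Pol II peaks without Hexim1 were 5.32% of the Pol II peaks on chromosome 21 and 16.4% on chromosome 12. Hexim1 peaks without Pol II were 65.0% of the Hexim1 peaks on chromosome 19 and 84.0% on chromosome 8.

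Over processed pseudogenes 14 of 721 Pol II peaks had no Hexim1 (1.94%, 1.07 to 3.24), against 11.3% of all Pol II peaks, and 1176 of 1902 Hexim1 peaks over them had no Pol II (61.8%, 59.6 to 64.0). Over miRNA genes 173 of 499 Hexim1 peaks were without Pol II (34.7%, 30.5 to 39.0), against 78.7% of all Hexim1 peaks. Of the lncRNA genes, H19, an imprinted gene, had Hexim1 without Pol II at a Hexim1 fold of 5.26, and GAS5, a host of snoRNAs, had both, at folds of 75.7 and 11.7. These kinds of gene were taken up after the values were seen.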
